A study of Mus musculus with 12 samples.

Results

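The genes described here are those of the proteasome, taken as every row of the deposited table whose symbol begins with Psm, a letter from a to g and a digit, leaving out processed copies. The rule found 48 of the 11911 genes of the table, of which 47 are subunits, activators, an inhibitor or assembly factors and 1, Psmc3ip, shares only the name. Psma8 and Psmb11 are not analysed here. RNA was sequenced from mouse (Mus musculus) heart neutrophils in 12 libraries, 6 of the genotype labelled control (numbered 2, 6, 7, 8, 11 and 12) and 6 of the genotype labelled LOY (numbered 3, 4, 5, 10, 14 and 15), which in the series title stands for hematopoietic cells without a Y chromosome. Both groups carry titles naming a control bone marrow transplant (BMT), and all 12 are labelled control for treatment. Each library came from 800 left ventricular cells that were sorted as CD45.2+, Ly6G+, CD64- and RFP+, that is, as leukocytes with a neutrophil surface protein and a red fluorescent protein but without a macrophage receptor. How the Y chromosome was removed, and the age, strain and sex of the recipients, are not given in the sources used here. Because no label says whether the libraries are of different mice, the p-values speak only for the variation among these 12.

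The proteasome is the protease that degrades proteins tagged with ubiquitin. Its 20S core is a barrel of alpha rings outside and beta rings inside, and the protein-cutting sites sit on the beta subunits Psmb6, Psmb7 and Psmb5. In immune cells, and under interferon gamma, newly built cores take up Psmb9, Psmb10 and Psmb8 in their place, which makes the immunoproteasome and changes the peptides offered on MHC class I. The 19S cap, with its ring of ATPases, binds ubiquitinated proteins, unfolds them and feeds them into the core, and other activators such as PA28 (Psme1 with Psme2) can bind instead of it. Leukocytes are known to make immunoproteasome subunits without added interferon.

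Promoters of an inducible and a constitutive form are shown for the Psmb8 and Psmb5 pair and for the Psmb9 and Psmb6 pair, because the balance of these forms is compared below in the text on the catalytic subunits. Each runs 5′ to 3′ from 250 bases before to 50 after the RefSeq start (build GRCm38.p6), and capitals mark the match to a motif on either strand. Psmb8 is at chr17:34197945-34198244 (plus strand), Psmb5 at chr14:54617946-54618245 (minus strand), Psmb9 at chr17:34187281-34187580 (minus strand) and Psmb6 at chr11:70525107-70525406 (plus strand).
Psmb8: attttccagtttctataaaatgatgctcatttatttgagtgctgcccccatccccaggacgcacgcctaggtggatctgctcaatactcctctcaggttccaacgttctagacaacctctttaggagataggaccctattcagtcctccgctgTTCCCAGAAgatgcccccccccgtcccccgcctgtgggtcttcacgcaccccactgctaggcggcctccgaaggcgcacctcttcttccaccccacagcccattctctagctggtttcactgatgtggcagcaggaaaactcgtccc
Psmb5: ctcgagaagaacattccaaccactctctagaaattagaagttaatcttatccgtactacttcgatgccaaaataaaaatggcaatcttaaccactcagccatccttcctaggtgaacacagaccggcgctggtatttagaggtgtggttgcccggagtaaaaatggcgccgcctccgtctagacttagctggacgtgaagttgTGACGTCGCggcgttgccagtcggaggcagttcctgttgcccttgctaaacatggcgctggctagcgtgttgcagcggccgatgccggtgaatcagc
Psmb9: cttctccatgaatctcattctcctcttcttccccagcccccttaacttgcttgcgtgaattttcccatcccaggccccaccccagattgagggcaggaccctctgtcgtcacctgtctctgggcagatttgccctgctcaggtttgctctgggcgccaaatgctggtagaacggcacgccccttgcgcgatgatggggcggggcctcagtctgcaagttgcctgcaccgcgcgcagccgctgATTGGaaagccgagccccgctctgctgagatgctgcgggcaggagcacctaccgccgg
Psmb6: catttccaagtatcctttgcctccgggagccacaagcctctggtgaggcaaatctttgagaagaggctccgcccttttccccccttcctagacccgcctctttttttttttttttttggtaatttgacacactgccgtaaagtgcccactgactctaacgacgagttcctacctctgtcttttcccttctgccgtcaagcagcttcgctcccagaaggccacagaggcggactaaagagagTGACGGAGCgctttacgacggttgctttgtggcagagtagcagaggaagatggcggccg

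The capitals in Psmb8 match the gamma-activated site TTCNNNGAA, which 8.3% of all 32851 promoters of that length hold. Those in Psmb5 and Psmb6 match TGACNNNGC, the core of the antioxidant response element bound by NRF factors, which 12.4% hold. Those in Psmb9 match CCAAT on the opposite strand, a box that 37.4% hold. The fourth motif searched was the interferon-regulatory factor motif GAAANNGAAA, which 3.44% of promoters hold. RefSeq promoters were found for 41 of the 48 genes, 44 promoters in all, because some genes have more than 1. Of these 44, 5 held GAAANNGAAA (Psmb3, Psmd4, Psmd9, Psme1 and Psmg4), 3 held TTCNNNGAA (Psmb8, Psmd2 and Psmg1), 6 held TGACNNNGC and 14 held CCAAT. The promoter of Psmb10 held none of the 4. Both strands were searched, and no matches to different motifs overlap in the 4 sequences shown. A match is a run of letters and not a bound site.

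In the values used, reads per gene are divided by 1 factor per library and called normalised reads. The libraries held 6767108 to 12561174 reads over the listed genes, and the proteasome genes took 0.209% to 0.461% of them. The Y-linked list (Ddx3y, Eif2s3y and Uty in the table) summed to 1032 to 1972 normalised reads in control libraries and 0 to 59.3 in LOY libraries. The 8 neutrophil markers summed to 200000 to 587800 in control and 180600 to 365400 in LOY libraries. Markers of other heart cells were also read. The 11 cardiomyocyte markers summed to 3531 to 6896 in control and 4032 to 54400 in LOY libraries, with medians of 4826 and 11430. In 5 of the 6 LOY libraries, all but LOY 5, this sum was above all 6 control libraries. The 6 fibroblast markers summed to 139 to 1537 and 386 to 7974, and 3 LOY libraries were above all controls. Endothelial (7 of 7 markers, 1052 to 4079 and 2158 to 6039), macrophage (7 of 7, 4849 to 7964 and 2657 to 11310) and B cell sums (5 of 5, 2566 to 10460 and 2549 to 7969) overlapped, as did the T and NK cell list (2 of 6 in the table, 0 to 440 and 0 to 658). No marker of the 7 lists was at 0 in all 12 libraries. Their part in the results below was not tested. In bulk samples, fewer cells of a type and less RNA per cell cannot be told apart.

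Over all 12 libraries, the inducible catalytic subunit Psmb8 had the highest mean level per length of the proteasome genes. Many of the other genes were read in some libraries and near 0 in others, in both genotypes. Of the values of the tested proteasome genes, 14.5% were below 10 normalised reads, beside 18.1% of those of all genes tested. Between genotypes, 0 of the 43 genes that could be tested passed the threshold (limma, adjusted p below 0.05), where 0.0288% of the 6951 genes tested did. To be tested, a gene had to reach 10 normalised reads in 6 or more libraries, and the 5 that did not were Psmd9, Psmc3ip, Psmg1, Psmg2 and Psmg4.

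**Figure D1:**
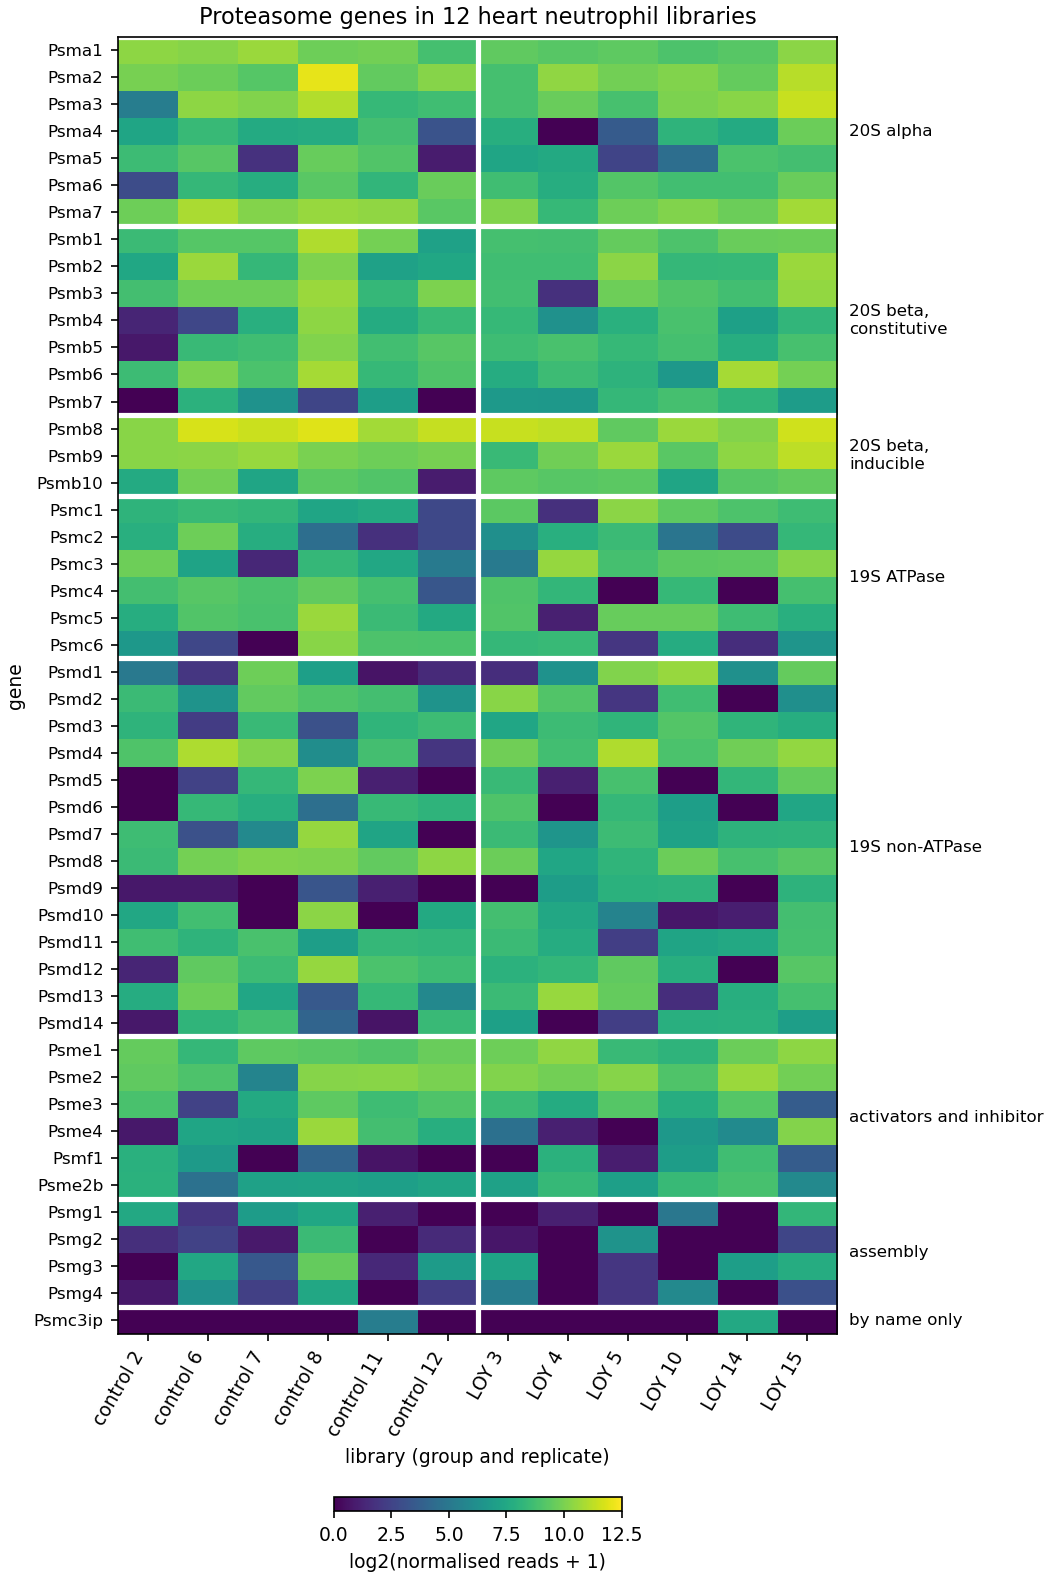
Level of each of the 48 proteasome genes (rows, grouped by role) in each of the 12 libraries (columns), as log2(normalised reads + 1) on a colour scale. Psmb8 and Psmb9 are at a high level in every column, the assembly factors are near 0 in most, and single dark cells lie in the rows of many genes in both genotypes.

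The 7 alpha subunits, which form the outer rings of the 20S core, were read in most libraries but differed in how evenly. Of their values, 7.14% were below 10 normalised reads, and 4 of the 7 genes had at least 10 in all 12 libraries. Psma7, the alpha subunit of the highest mean level per kb of exon, had 621, 1270 and 1954 normalised reads (lowest, median and highest) in control libraries and 330, 990 and 1739 in LOY libraries. Its coefficient of variation over the 12 libraries was 41.6%, and that of Psma1 was 41.4%, the lowest of the set. The others were less even, at 56.4% (Psma6), 78.9% (Psma3), 80.8% (Psma2), 90.6% (Psma5) and 94.4% (Psma4). Psma5 ran from 0.925 to 784 normalised reads in control and from 4.94 to 492 in LOY libraries. Psma1 had 456, 1056 and 1573 in control and 508, 643 and 1282 in LOY libraries. The groups overlapped for both genes, and their differences (LOY minus control on the log2(value + 1) scale) were -0.50 (SE 0.39) for Psma1 and -0.37 (SE 0.43) for Psma7. Psma4 had the lowest mean level of the class, with 8.33, 205 and 432 in control and 0, 214 and 832 in LOY libraries.

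Psma3 and Psma6 had estimates of the other sign. Psma3 stood at 37.7, 757 and 2123 in control and 454, 928 and 2792 in LOY libraries, a difference of 0.86 (SE 0.85). Psma6 stood at 6.53, 308 and 794 in control and 222, 415 and 807 in LOY libraries, a difference of 1.08 (SE 0.99). In both genes the lowest value was that of control 2, and the other 11 libraries overlapped. Without control 2 each difference was 0.12. None of the 7 passed the threshold, with 3 estimates higher and 4 lower in LOY.

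The structural beta subunits Psmb1, Psmb2, Psmb3 and Psmb4, which carry no cutting site, were read in nearly every library. Psmb2 had the second highest mean of the whole set per length (538 normalised reads per kb of exon, SD 463), although its level ran from 118 to 1320 per kb and its place from first to 25th. Psmb3 had 318, 860 and 1572 normalised reads in control libraries and 2.33, 488 and 1408 in LOY libraries. Its difference of -1.46 (SE 1.19) rested on LOY 4, the only library below 10, without which it was -0.19. Psmb4 was below 10 in control 2 and control 6, at 1.45 and 5.24, and between 79.1 and 1349 elsewhere.

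The 3 inducible catalytic subunits were the most regularly read class. They had at least 10 normalised reads in 35 of their 36 values (97.2%), the exception being Psmb10 in control 12, where 1 read was left. Psmb8 (chr17:34197721-34201454) replaces Psmb5 in the immunoproteasome and cuts after hydrophobic residues. It had 1226, 2834 and 3854 normalised reads in control libraries and 708, 2039 and 3057 in LOY libraries. LOY 5, at 708, was the lowest of all 12, and the groups overlapped over most of their range. The difference was -0.51 (SE 0.41, 95% interval -1.38 to 0.37, limma adjusted p = 0.997).

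Psmb9 (chr17:34181987-34187764) replaces Psmb6 and lies beside Tap1, a subunit of the peptide transporter. It had 850, 1125 and 1546 normalised reads in control libraries and 352, 1114 and 2418 in LOY libraries. The medians lay close together and the LOY libraries reached both further down and further up. The difference was -0.17 (SE 0.44, 95% interval -1.10 to 0.76), and 0.06 with edgeR and DESeq2. Psmb10 (chr8:105935735-105938444) replaces Psmb7. It stood at 0.925, 374 and 920 in control and 162, 638 and 731 in LOY libraries, a difference of 1.66 (SE 1.26). Without control 12 the difference was 0.37, and edgeR and DESeq2 gave 0.49 and 0.48. Of the 6 LOY libraries, 5 lay between 611 and 731 and LOY 10 at 162, while the control values were spread from 1 read upwards.

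Of their constitutive counterparts, Psmb5 (chr14:54614119-54618022), which bears the chymotrypsin-like site, had 0.725, 410 and 1119 normalised reads in control libraries and 222, 416 and 473 in LOY libraries. Control 2 held a single read, and the medians of the groups were nearly equal. Psmb6 (chr11:70525367-70527858), with the caspase-like site, had 327, 509 and 1815 in control and 102, 324 and 1796 in LOY libraries. Both groups spanned a wide range, and the differences were 0.89 (SE 1.29) for Psmb5 and -0.67 (SE 0.70) for Psmb6. With edgeR and DESeq2 the sign for Psmb5 turned, at -0.30 and -0.32.

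Psmb7 (chr2:38588036-38644087), with the trypsin-like site, was the lowest beta subunit per length and had the largest estimate of the 43 tested genes. In the control libraries it stood at 0 (control 2), 262 (control 6), 82.8 (control 7), 5.07 (control 8), 128 (control 11) and 0 (control 12) normalised reads. In the LOY libraries it stood at 106 (LOY 3), 98.9 (LOY 4), 314 (LOY 5), 453 (LOY 10), 285 (LOY 14) and 120 (LOY 15). All 6 LOY libraries were at 98.9 or more, while 3 control libraries were below 10 and the other 3 lay within or just under the LOY range. The difference was 3.59 (SE 1.53, 95% interval 0.30 to 6.88), with an unadjusted p of 0.0344 and a limma adjusted p of 0.997. The count-based tools gave smaller log2 differences of 1.49 (edgeR, unadjusted p = 0.34) and 1.53 (DESeq2, unadjusted p = 0.24). In the limma fit, Psmb7 was the only 1 of the 43 genes below an unadjusted 0.05, where 4.37% of all genes tested were. Of the exon bases of Psmb7, 11.8% overlap Nek6 on the other strand, and the library chemistry does not keep strand. For Psmb8, 14.7% overlap Gm20496, for Psmb9 5.8% overlap Tap1, and for Psmb5 12.1% overlap Mir686. Processed copies of Psmb5, Psmb6 and Psmb7 exist in the genome, so how their reads were assigned is uncertain.

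**Figure D2:**
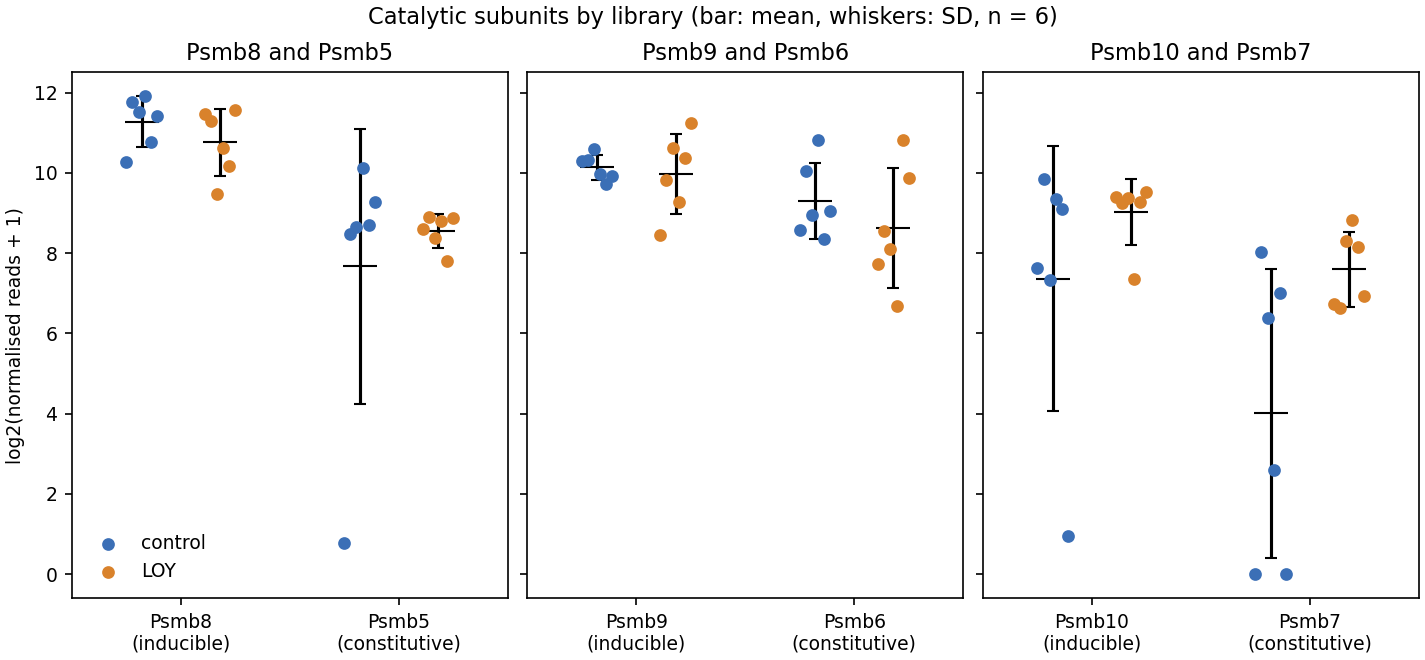
Level, as log2(normalised reads + 1), of the 3 inducible catalytic subunits and of the 3 constitutive ones they replace, with 1 point per library, the mean as a bar and the SD as whiskers (6 libraries per genotype). Psmb8 and Psmb9 are high in every library of both genotypes, and Psmb5, Psmb7 and Psmb10 each have control libraries at or near 0.

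The pairs were then compared within each library, to ask whether the balance of inducible to constitutive form differed by genotype. Because a longer transcript gives more reads, levels of different genes were compared per kb of exon. Psmb8 exceeded Psmb5 in 9 of 12 libraries, Psmb9 exceeded Psmb6 in 7 and Psmb10 exceeded Psmb7 in 11. The inducible form made a median of 58.2%, 55.9% and 91% of each pair. These levels depended on the length used. Per coding length the counts were 12, 10 and 11 with medians of 83.4%, 72.9% and 83.7%, and per length of the principal transcript, a measure chosen after seeing the data, they were 12, 8 and 11 with medians of 74.3%, 59.4% and 81.7%. In control 12, the share of Psmb10 rested on 1 read against 0.

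The genotypes did not differ in this balance beyond the spread between libraries. For this test the ratios were taken on normalised reads + 1 without a length, since a length shifts both genotypes alike, so they do not compare levels of the paired genes. The log2 ratio of Psmb8 to Psmb5 was 3.60 ± 2.93 in control and 2.21 ± 0.65 in LOY libraries (n = 6 each, SD), a difference of -1.40 (SE 1.23; two-sided exact permutation test, p = 0.297). Control 2, with its single Psmb5 read, stood at 9.47, and the other 11 libraries lay between 1.09 and 3.28. Without control 2 the difference was -0.22 (exact p = 0.593). The log2 ratio of Psmb9 to Psmb6 was 0.84 ± 0.99 and 1.34 ± 1.14 (n = 6 each), a difference of 0.50 (SE 0.62, exact p = 0.437). The log2 ratio of Psmb10 to Psmb7 was 3.36 ± 3.01 and 1.43 ± 1.61 (n = 6 each), a difference of -1.94 (SE 1.40, exact p = 0.236). The ratios of control 2 (7.64) and control 8 (6.74) rested on Psmb7 at 0 and 5.07 normalised reads. That of control 12 (0.95) rested on 1 Psmb10 read against 0, so these ratios depend on the pseudocount. The difference was -1.08 without control 2 and -1.26 without control 8, but -2.42 without control 7 and also without control 12. Without LOY 10, whose ratio was -1.48, it was -1.35. With pseudocounts of 0.5 and 5 the difference over all 12 libraries was -2.22 and -1.32. Adjusted over the 3 pairs (Benjamini-Hochberg), each exact p was 0.437, and the smallest p that 6 libraries against 6 allow is 0.00216. Summed per kb of exon, the 3 inducible forms made 61.5% ± 12.1 of the 6 catalytic genes in control libraries and 59.8% ± 9.23 in LOY libraries (n = 6 each, SD). Like the pair levels above, this share depends on the length used.

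In the 19S cap, the 6 ATPases (Psmc1 to Psmc6), which form the ring that unfolds substrates, were read less evenly than the core. Of their values, 19.4% were below 10, and none of the 6 genes reached 10 in all 12 libraries. Psmc5 had the highest level per length (367 per kb) and Psmc2 the lowest (38.9 per kb). Psmc3 had 1.66, 166 and 851 normalised reads in control libraries and 34.5, 665 and 1474 in LOY libraries, a difference of 2.36 (SE 1.34, unadjusted p = 0.0999 and adjusted p = 0.997, limma). The groups overlapped, since control 2 at 851 lay above 4 of the LOY libraries. Psmc4 stood at 9.25, 478 and 726 in control and 0, 320 and 525 in LOY libraries, a difference of -2.37 (SE 1.87) that was the lowest estimate of the set. It was at 0 in LOY 5 and LOY 14, without either of which the difference was -1.22, and the other 4 LOY libraries lay within the control range. Psmc1 had a difference of 0.98 (SE 1.45) and Psmc5 of -1.11 (SE 1.28), with 1 library of each genotype below 10 for Psmc1 and LOY 4 alone below 10 for Psmc5. Without control 12 the Psmc1 difference was 0.10, but without LOY 4 it was 2.25, and edgeR and DESeq2 both gave 1.43. Without LOY 4 the Psmc5 difference was 0.20. Psmc2 ran from 2.27 to 843 in control and from 6.31 to 361 in LOY libraries.

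The genes Psmd1 to Psmd14 include the scaffold and the lid of the cap, the ubiquitin receptors and the enzyme that removes ubiquitin (Psmd14). These names also cover assembly factors of the base of the cap, such as Psmd5 and Psmd9, so the class is not of subunits alone. Of the values of all 14 genes, 23.8% were below 10, and Psmd5 and Psmd9 reached 10 in only 6 and 4 of the 12 libraries. The lid subunit Psmd8 was the only 1 of the 14 genes with at least 10 in all 12 libraries. Psmd8 had 363, 1006 and 1311 normalised reads in control libraries and 169, 539 and 839 in LOY libraries. Its difference was -0.90 (SE 0.50, 95% interval -1.97 to 0.17, unadjusted p = 0.0931 and adjusted p = 0.997, limma), and 5 of the 6 control libraries lay at 733 or more, as did 2 of the LOY libraries. Psmd4, a ubiquitin receptor and the class member of the highest level per kb, had 2.78, 487 and 1992 in control and 420, 885 and 2036 in LOY libraries. Its difference was 1.94 (SE 1.24), with control 12 the only library below 10, and was 0.76 without it.

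The scaffold subunits Psmd1 and Psmd2 had estimates of opposite sign. Psmd1 was at 0.568, 17.8 and 842 normalised reads in control and 2.11, 415 and 1514 in LOY libraries, a difference of 3.08 (SE 1.89). In both groups it ranged over more than 100-fold. Psmd2 was at 83.3, 401 and 731 in control and 0, 238 and 1260 in LOY libraries, a difference of -2.07 (SE 1.66), with LOY 5 and LOY 14 below 10. With edgeR and DESeq2 the estimate for Psmd2 was 0.03. Psmd5, a factor that helps to assemble the base of the cap, was at 0 in 3 libraries, and so was the lid subunit Psmd6.

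Psmd9, also an assembly factor of the base, gave the only call of any tool among the 48 genes. In the control libraries it stood at 0.725 (control 2), 0.748 (control 6), 0 (control 7), 8.87 (control 8), 1.14 (control 11) and 0 (control 12) normalised reads. In the LOY libraries it stood at 0 (LOY 3), 124 (LOY 4), 248 (LOY 5), 267 (LOY 10), 0 (LOY 14) and 274 (LOY 15). It was thus above 10 in 4 of 6 LOY libraries and in 0 of 6 control libraries, while the other 2 LOY libraries held no read, so the groups overlapped. The reads were 11 over the control group and 1002 over the LOY group, and the mean of normalised reads was 79.6 times higher in LOY. The filter of the main test removed the gene, and edgeR, with a filter of its own, did not test it either. Without that filter, limma gave 4.19 (SE 1.78, unadjusted p = 0.0274 and adjusted p = 0.916), and DESeq2 on the recovered reads gave a log2 fold change of 6.36 with an adjusted p of 0.0114.

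The authors' deposited table gave the same log2 fold change of 6.36 and adjusted p-value of 0.0114 for Psmd9. The library factors of DESeq2 on the recovered reads differed from the deposited ones by a relative 1.09e-11 at most. Both called 303 genes, so the deposited values are not a second, separate test. DESeq2 called 1 of the 46 proteasome genes with an adjusted p (2.17%), beside 3.12% of all genes. A share that rests on 1 call cannot be told apart from that background. Of the exon bases of Psmd9 (chr5:123169413-123250131), 25.5% overlap Gm26745 on the other strand, where reads of the 2 genes cannot be told apart, and the remaining exon bases are not shared. Of the 4 LOY libraries with reads, LOY 4 (9561), LOY 10 (54400) and LOY 15 (13360) had cardiomyocyte sums above every control library, and LOY 5 (4032) was within the control range. LOY 3 (12410) and LOY 14 (10450), which held no Psmd9 read, were also above it. The part of these markers in the Psmd9 values was not tested.

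**Figure D3:**
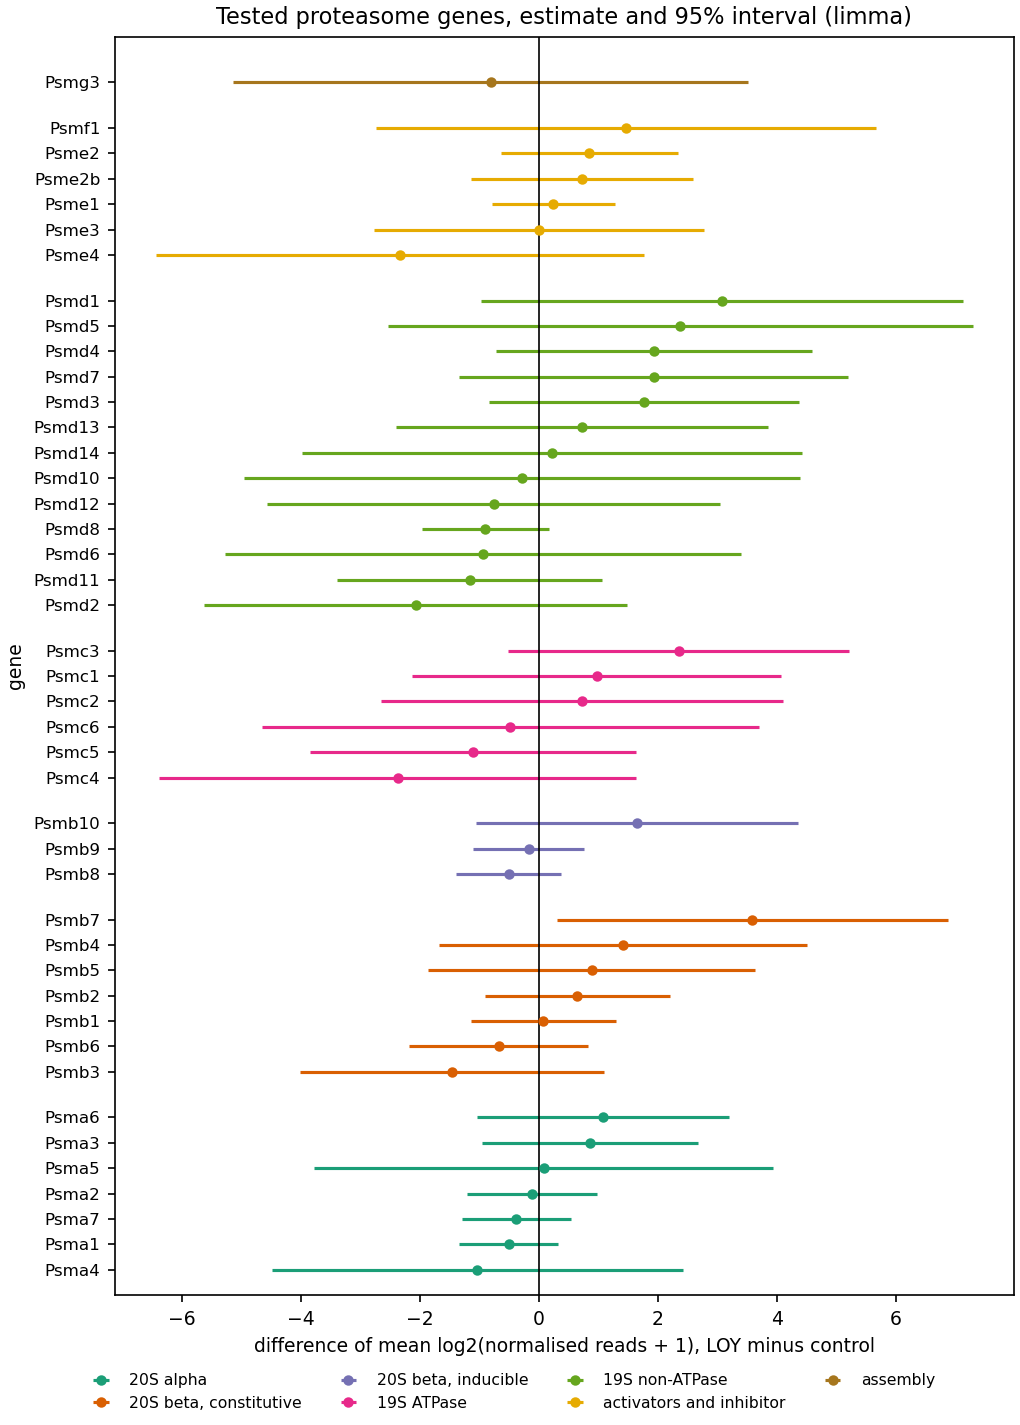
Difference between genotypes, LOY minus control, of mean log2(normalised reads + 1) for the 43 tested proteasome genes, with the limma 95% interval as a bar and colours for the role. The interval of Psmb7 alone lies on 1 side of 0, and the intervals of Psmb8, Psmb9, Psma1 and Psma7 are among the shortest.

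Of the activators, Psme1 and Psme2, whose products form the interferon-induced cap PA28 in mammals, were read at 10 or more in every library. Psme2 had the third highest mean of the set per kb of exon (518). It had 48.9, 854 and 1228 normalised reads in control libraries and 527, 1019 and 1562 in LOY libraries, a difference of 0.85 (SE 0.69). Control 7, at 48.9, was the lowest library, and without it the difference was 0.16. Psme2b had a difference of 0.73 (SE 0.88), and its coding length equals that of Psme2 (717 bases), of which it is a near-identical copy, so the split of reads between both is uncertain. Psme4, the large nuclear activator PA200, stood at 0.725, 198 and 1572 in control and 0, 43.5 and 1158 in LOY libraries, a difference of -2.33 (SE 1.92). Its highest values in the groups were those of control 8 and LOY 15. Psmf1, the inhibitor PI31, was at 0 in 3 libraries and had 0, 7.89 and 241 in control and 0, 68.2 and 400 in LOY libraries.

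The assembly factors Psmg1 to Psmg4, chaperones that help to build the 20S core, were the least read class, with 64.6% of values below 10. Psmg3 alone could be tested, with 0, 63.3 and 744 normalised reads in control and 0, 64.5 and 211 in LOY libraries and a difference of -0.81 (SE 2.02). Psmg1 reached 10 in 5 libraries, Psmg4 in 4 and Psmg2 in 2. Psmc3ip, a cofactor of meiotic recombination that is not a subunit, was read in control 11 and LOY 14 only, at 38.1 and 187 normalised reads.

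Over all tested proteasome genes, estimates were higher in LOY for 24 and lower for 19, where 50.4% of all tested genes were higher. Their median was 0.08, beside 0.008 for all genes tested, and turned to -0.26 with edgeR and -0.30 with DESeq2. The lowest limma adjusted p was 0.997, edgeR on the recovered reads called 0 of 43 with 0 below an unadjusted 0.05 (background 0% called, and 1.84% below an unadjusted 0.05), and for 0 of the 48 genes did the groups not overlap (0.201% of all genes tested). These figures do not show that the levels were equal. The SE of the 43 genes ran from 0.39 to 2.30 with a median of 1.29 (1.35 over all genes tested), no interval lay within 1 log2 unit of 0, and 27 intervals included both -1 and 1. Of the 48 genes, 13 had at least 10 normalised reads in all 12 libraries, which is 30.2% of those tested, beside 35.3% of all genes tested.

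The order of mean level per kb of exon over all 12 libraries began with Psmb8 (684, SD 297), Psmb2 (538, SD 463), Psme2 (518, SD 233), Psmb5 (486, SD 292) and Psmb6 (370, SD 315). Neighbours in this order did not differ beyond their SD. Psmb8 was first in 4 libraries and among the first 10 in 11. Psmb9 was 11th (321, SD 146) and Psmb10 15th (290, SD 168). The order ended with Psmf1 (15.0), Psmd9 (10.6) and Psmc3ip (10.3). Psmb7, at 45.2 per kb, was 39th, so the subunits that bear the catalytic sites ranged over most of the list. The order depended on the length used, except that Psmb8 came first and Psmc3ip last with each. Per coding length Psmb2 was 9th, Psmb5 17th and Psmb9 3rd, after Psma2, and per principal transcript length, a measure added after seeing the data, Psmb2 was 7th, Psmb5 11th and Psmb9 5th. Psmb8 was first in 8 libraries per coding length and in 5 per principal transcript length.

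The most proteasome genes, and the largest shares of reads in them, were in control 8 and LOY 15. Control 8 had 44 of the 48 genes at 10 or more and 0.461% of its reads in them, and LOY 15 had 45 and 0.398%. In the other 10 libraries the genes at 10 or more numbered 31 to 42 and the share was 0.209% to 0.328%, so the counts ran on without a wide gap. Of all genes tested, 24.1% were below 10 in control 8 and 19.1% in LOY 15. Over the 12 libraries this ran from 10.3% (LOY 3) to 26.9% (LOY 5). Control 8 was the highest of the 12 libraries for 18 of the 43 tested proteasome genes (41.9%), whereas it was the highest for 16.9% of all genes tested. LOY 15 was the highest for 5 of the 43 (11.6%), nearer to its 9.14% of all genes tested. Control 8 also had the highest neutrophil (587800) and B cell (10460) marker sums of all 12 libraries and the highest endothelial, fibroblast and macrophage sums of the controls, and LOY 15 had the highest endothelial sum (6039). Their part in these counts was not tested. The share of reads was 0.287% ± 0.096 in control and 0.295% ± 0.055 in LOY libraries (n = 6 each, SD). Without both libraries, in a fit added after seeing the data, the median difference of the proteasome genes was 0.10. In that fit 0 proteasome genes passed the threshold, but so did 0 of all genes tested, so this count says nothing particular to them.

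**Figure D4:**
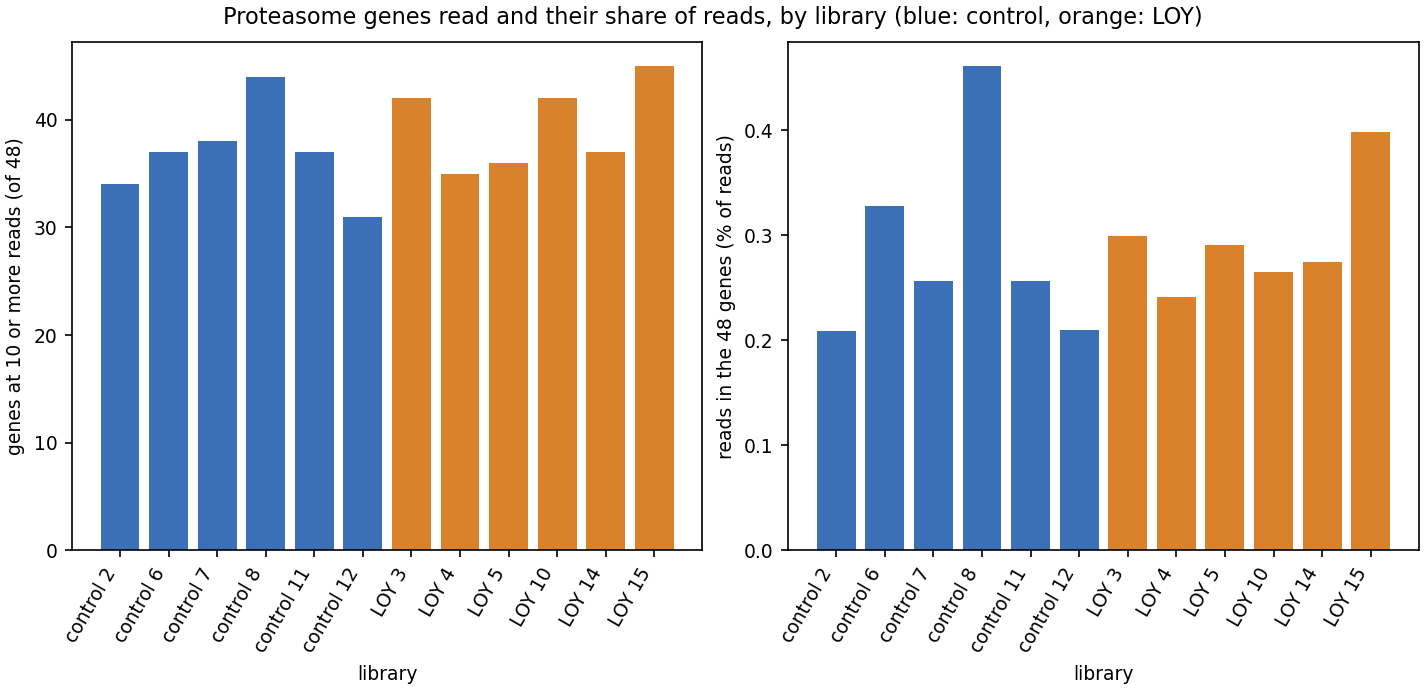
Number of the 48 proteasome genes at 10 or more normalised reads (left) and their share of the reads of listed genes in percent (right), with 1 bar per library. Control 8 and LOY 15 have the tallest bars of their group in both panels, and the 2 genotypes overlap.

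Among genes that work with the proteasome, none of those tested passed the threshold. Of the 28 ubiquitin-proteasome partners listed (chaperones, shuttles, ubiquitin genes and regulators), 25 were in the table, 22 were tested and 0 passed the threshold (background 0.0288%), with 7 estimates higher and 15 lower in LOY and a median of -0.17. Akirin2, which helps to carry proteasomes into the nucleus, had 0, 69.4 and 1030 normalised reads in control and 0, 1.74 and 28.1 in LOY libraries, a difference of -2.91 (SE 1.80). No LOY library exceeded 28.1, and 4 libraries of the series were at 0. The shuttle Ubqln1 differed by 1.90 (SE 1.39) and the ubiquitin fusion gene Rps27a by -0.48 (SE 0.36). Of the 17 genes of the interferon and peptide route, 15 were tested and 0 passed, with 7 higher and 8 lower and a median of -0.06. The peptidase Tpp2 had 0.828, 258 and 744 in control and 122, 526 and 667 in LOY libraries, a difference of 2.84 (SE 1.52). Ifngr1, a chain of the interferon gamma receptor, differed by -0.58 (SE 0.38) and the kinase Jak2 by -1.71 (SE 1.26). In both lists, 0 genes were below an unadjusted 0.05 (limma). Of all genes tested, 4.37% were below it and 50.4% had estimates higher in LOY.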

How the data were processed

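Per the labels' protocols, a low-input template-switching kit (SMART-Seq v4) amplified the cDNA of sorted cells, and Nextera XT made the libraries. Neither strand nor molecular identifiers are kept, so PCR copies are counted. The submitters' processing notes name STAR 2.5.2b, Trimmomatic 0.36, featureCounts from Subread 1.5.2 and bcl2fastq 2.17, and the builds GRCm38 and mm10. The authors deposited 1 table with a signal column per library, in which, by the values, whole reads per gene had been divided by 1 factor (100% whole within 0.01 of a read), and with their own log2 fold change, p-value and adjusted p-value per gene, made with a tool not given in the sources used here. Proteasome genes and the other lists were chosen with earlier results of these data known.

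limma 3.58.1 (trend, robust) was fitted to log2(normalised reads + 1) with genotype as the only term over all 12 libraries and 6951 genes, and Benjamini-Hochberg adjustment ran over all of them (threshold 0.05). On this scale changes of genes low in all libraries are understated, while a few libraries near 0 can make a difference larger than that of the mean reads. Pair ratios used a pseudocount of 1 and exact permutation over libraries. Alternatives were pseudocounts of 0.5 and 5, no filter, a mean of at least 50, quantile normalization, array weights, edgeR 4.0.16 (quasi-likelihood, TMM) and DESeq2 1.42.0 on the recovered reads, and each library left out. A fit without control 8 and LOY 15 and the principal transcript length were added after seeing the data. Exon lengths, coordinates and overlaps came from GENCODE M21 (GRCm38), which matched 48 of 48 identifiers, and promoters from RefSeq. Catalytic subunits were always named, as were, in each role, the 2 genes of smallest p per direction, the highest and lowest per kb, those not tested and those at 0 in 3 or more libraries. A few others were named after their values were seen. Of the other lists, the 3 of smallest p were named. Genes absent from the deposited table are not in the totals per library.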

Additional observations from a re-analysis of the deposited data

Results flagged for a closer look

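In 102 groups of 6 libraries (each gene in each genotype, and each pair ratio), the highest or lowest library was tested for a gap. The gap to its neighbour, as a share of the group's range, was set against Dixon's 95% limit. Chance passes this limit in about 1 in 20 groups only where values are normally distributed. Genes were tested as normalised reads without a log, and many had almost no reads in some libraries, so that rate does not apply to them. The limit was passed 23 times, a count that therefore cannot be set against a chance rate. Of the 23, 10 were in control 8 and 5 in LOY 15, the libraries that held the most proteasome genes, and genes of 1 library are not independent.

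In control 8, the normalised reads that stood above the other control libraries were 4180 for Psma2, 1350 for Psmb4, 1590 for Psmc5, 1260 for Psmd10, 1060 for Psmd5, 1450 for Psmd7, 8.87 for Psmd9, 1570 for Psme4, 367 for Psmg2 and 744 for Psmg3. The next control library stood at 1200 for Psma2 and at 435 for Psme4. In LOY 15 they were 1280 for Psma1, 2790 for Psma3, 832 for Psma4, 1160 for Psme4 and 312 for Psmg1, with the next LOY library at 692 for Psma1 and 101 for Psme4.

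Other single libraries that stood apart were control 6 for Psmc2 (843), control 2 for Psmc3 (851), control 7 for Psmd1 (842), control 11 for Psmc3ip (38.1), LOY 14 for Psmc3ip (187) and LOY 5 for Psmg2 (85.0). LOY 10 lay below the other LOY libraries for Psmb10, at 162 against 611 or more. In control 2, the log2 ratio of Psmb8 to Psmb5 was 9.47, where the next control library had 3.28.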

How the results depend on the processing

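The count of all genes called was 2 in the main test, and 0 with no filter, with a mean of at least 50, with edgeR and without control 8 and LOY 15, 303 with DESeq2, and 0 to 4 with 1 library left out. Of the proteasome genes, 0 were called in each of these, except DESeq2 with 1 (Psmd9). Of 573 values of the 28 named and tested genes under alternatives, 555 kept their direction, 18 took the other and 0 passed the threshold. Psmg3 turned to 0.09 with array weights. With edgeR and DESeq2 the log2 differences turned to 0.21 and 0.20 for Psma4, -0.30 and -0.32 for Psmb5, 0.06 and 0.06 for Psmb9, -0.39 and -0.38 for Psmc2, and 0.03 and 0.03 for Psmd2. With 1 library left out they ran from -1.82 to 0.20 for Psma4, -0.49 to 1.38 for Psmb5, -0.43 to 0.13 for Psmb9, -0.08 to 1.52 for Psmc2, -1.50 to 0.20 for Psmc5 and -2.18 to 0.12 for Psmd6. The cause was not tested. The median over the proteasome genes turned to -0.26 with edgeR and -0.30 with DESeq2, and ran from -0.01 to 0.50 with 1 library left out. The Psmb8 to Psmb5 ratio difference ran from -1.76 to -0.22, the smallest without control 2, and that of Psmb10 to Psmb7 from -2.42 to -1.08. The Psmb7 difference was 1.49 with edgeR and 1.53 with DESeq2. No paired analysis was possible because the groups share no replicate number. Psmd9, Psmg1 and Psmg2 were each at 0 in 4 of 12 libraries and Psmc3ip in 10, where a fitted fold is no bound.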
